A study of Mus musculus with 2 samples.

Results

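The WNT pathway genes described here were 10 genes chosen by name. They were the TCF/LEF transcription factors Lef1, Tcf7, Tcf7l1 and Tcf7l2, their coactivator Ctnnb1, and the feedback and target genes Axin2, Nkd1, Sp5, Znrf3 and Rnf43. All 10 were among the 42422 genes of the count table, matched by Ensembl identifier to 1 row each, and 9 of them passed the filter on low counts, with 15252 genes tested in all. Rnf43 did not pass, with 87 counts over 30 of 40 libraries, and is given by its counts.

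Canonical WNT signalling keeps beta-catenin, the product of Ctnnb1, from being degraded by a complex that contains AXIN and APC proteins. Beta-catenin then enters the nucleus and binds TCF/LEF proteins, which repress their targets without it and activate them with it. Several targets feed back on the pathway: AXIN2 is part of the degradation complex, NKD1 binds Dishevelled, and the ubiquitin ligases ZNRF3 and RNF43 remove WNT receptors from the cell surface. In the foetal gonad WNT4 and RSPO1 are known for their part in ovary development, and beta-catenin has been studied in germ cells as they leave the primordial state.

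Germ cells were sorted by green fluorescence from gonads of mice carrying an Oct4-eGFP transgene (a reporter driven by Pou5f1 regulatory sequence) on the 129svJT2 background, crossed to Swiss mice and wild type otherwise. Gonads of E12.5 embryos were either dissociated directly (0 h) or cultured whole, mesonephros attached, for 24 h or 72 h, and gonads of several embryos were combined into each library. The mesonephros was taken off before sorting. XX germ cells were measured at 0 h, at 24 h in the vehicle DMSO and at 72 h in DMSO. Those of XY gonads were measured at 0 h and at 24 h and 72 h in DMSO, in 500 nM of the FGF receptor inhibitor BGJ398 (FGFRi) or in 500 nM of the MEK1/2 inhibitor PD0325901 (MEKi), with 4 libraries in each of the 10 groups. The inhibitors reached the whole gonad, so a response of the germ cells could come through other cells of the gonad, and no XX gonads were given an inhibitor.

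Total counts ran from 1178953 to 5199153 per library (median 2135128.5). The libraries were made in 2 pools of 20, and the pool of XY 24 h FGFRi and all 72 h groups was not that of the 0 h and other 24 h groups, so that time after 24 h, and FGFRi at 24 h, cannot be told apart from the pool. Nothing in the labels says whether libraries of a group came from separate cultures, so p-values measure only the spread between these libraries. Levels are given as CPM, the counts of a gene relative to the TMM-scaled size of its library. In bulk RNA, fewer cells that express a gene and less RNA per cell cannot be told apart. The 6 germ cell markers had a summed level of 2090 to 5640 CPM over the libraries, with Dazl between 832 and 1710 CPM in every group mean. The 6 Sertoli markers had a summed level of 4.18 to 104 CPM, highest in XY 24 h DMSO (15.5 to 104 CPM), and of these Amh was at 0 in 5 groups while Sox9 reached 60.1 CPM in 1 library.

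The pools also shared 16 sample indices. The same indices marked the XX 0 h and XX 72 h, the XY 0 h and XY 72 h DMSO, the XX 24 h and XY 72 h FGFRi, and the XY 24 h DMSO and XY 72 h MEKi libraries. An upper estimate of the counts that could have passed between libraries with the same index, set by the genes least counted in the receiving library, came to 2.55 to 36.8% of the counts of the first pool and 4.06 to 13.9% of those of the second. It was 2.55 to 5.21% for XX 0 h counts in XX 72 h libraries and 19.7 to 36.8% for XY 24 h DMSO counts in XY 72 h MEKi libraries. Whether any counts did pass was not tested, and values with the estimated part taken out are given for the members beside the results that they moved, and for the other pathway genes after those genes.

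Promoters are shown because Lef1, Tcf7 and Axin2 all fell in XX germ cells between 24 h and 72 h of culture. Motifs were not searched to choose the genes. Several were chosen as WNT feedback and target genes, however, so matches before them are not independent of that choice. Of Lef1, Tcf7 and Axin2 only Lef1 had a match, before an internal start. Of the 10 members, 9 had promoters in the RefSeq table (build GRCm38.p6), with 16 start sites. The 250 bases before each start were searched on both strands for the TCF/LEF motif CTTTGAA and for its forms that end in AT, in TA or in TT instead of AA. These forms cannot match at the same place on a strand. Of the 16 start sites of the members 3 held a match, or 18.8%, against 14.8% of all 32851 start sites of the table. Sp5 held 2 matches before its only start, which 1.43% of all start sites did. The sequences below run 5′ to 3′ along the strand of the gene, with the motif in capitals, and Axin2 and Nkd1 are shown for contrast as targets without a match in this window.
Sp5, chr2:70474673-70474922, + strand: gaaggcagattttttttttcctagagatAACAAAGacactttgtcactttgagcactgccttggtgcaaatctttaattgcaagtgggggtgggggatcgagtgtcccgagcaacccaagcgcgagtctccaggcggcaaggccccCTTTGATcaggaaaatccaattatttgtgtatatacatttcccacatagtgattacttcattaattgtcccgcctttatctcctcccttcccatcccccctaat
Lef1, start 45997 bases after its first start, chr3:131156044-131156293, + strand: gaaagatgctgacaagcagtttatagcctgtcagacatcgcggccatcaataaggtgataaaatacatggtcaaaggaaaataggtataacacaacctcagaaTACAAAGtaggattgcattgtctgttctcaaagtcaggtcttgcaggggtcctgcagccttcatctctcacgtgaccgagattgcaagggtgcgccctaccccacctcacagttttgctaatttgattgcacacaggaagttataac
Axin2, chr11:108920099-108920348, + strand: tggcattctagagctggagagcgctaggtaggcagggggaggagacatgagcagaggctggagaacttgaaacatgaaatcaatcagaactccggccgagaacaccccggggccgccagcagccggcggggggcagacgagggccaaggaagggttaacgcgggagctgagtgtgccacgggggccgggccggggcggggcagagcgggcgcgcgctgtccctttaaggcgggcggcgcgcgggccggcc
Nkd1, chr8:88527383-88527632, + strand: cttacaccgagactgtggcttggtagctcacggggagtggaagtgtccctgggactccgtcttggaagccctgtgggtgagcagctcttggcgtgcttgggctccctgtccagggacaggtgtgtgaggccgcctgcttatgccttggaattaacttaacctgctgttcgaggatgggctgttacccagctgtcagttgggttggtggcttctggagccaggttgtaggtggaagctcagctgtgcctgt
The matches lay 222 and 104 bases before the start of Sp5 and 147 bases before this internal start of Lef1. The other match lay 14 bases before an internal start of Tcf7l2. Counts were taken at the 3′ end of transcripts, so these data do not say which start of Lef1 or Tcf7l2 was used, and isoforms of Lef1 and Tcf7 cannot be told apart.

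**Figure D1:**
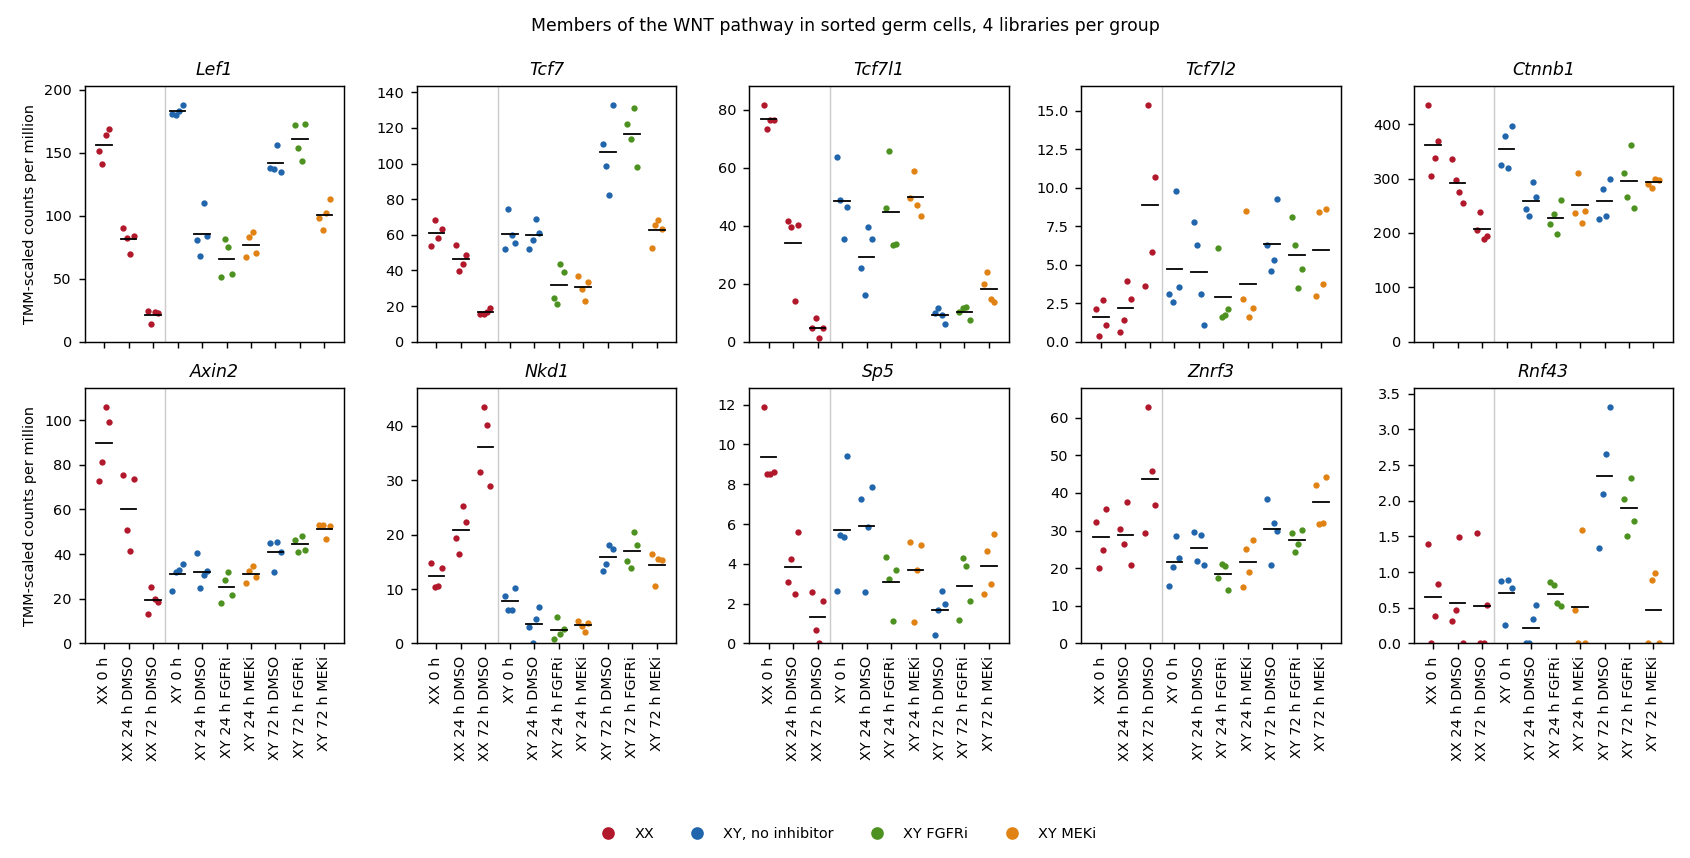
Levels of the 10 genes in each library, as TMM-scaled CPM on a linear axis that starts at 0, by group. Each point is 1 library, the black line is the mean of 4 libraries and the grey line parts XX from XY groups. Lef1, Tcf7 and Axin2 of XX germ cells were lowest at 72 h, where Nkd1 was highest.

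The comparison of XX with XY germ cells over time asked how the effectors diverged as the sexes differentiated. At 72 h in DMSO, Lef1 and Tcf7 were 6.69 and 6.4 times as high in XY as in XX germ cells, and both had fallen between 24 h and 72 h in XX germ cells. No TCF/LEF gene was called between the sexes at 0 h or 24 h by limma or edgeR. None had an unadjusted p under 0.05 there against a 1.5-fold change.

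Lef1 (GRCm39 chromosome 3, 130903919 to 131018005) encodes the TCF/LEF factor that acts mainly as an activator. At 0 h it was at 141, 151, 164 and 169 CPM in XX and at 180, 181, 183 and 188 CPM in XY germ cells. At 24 h in DMSO it was at 69.4, 82.2, 83.8 and 90.2 CPM in XX and at 67.7, 80.9, 83.9 and 110 CPM in XY germ cells. At 72 h in DMSO it was at 14.1, 23, 23.3 and 24.3 CPM in XX and at 135, 137, 138 and 156 CPM in XY germ cells. The sexes overlapped at 24 h only, and the lowest XY library at 72 h was far above the highest XX library. The log2 fold change of XY over XX was 0.21 (SE 0.101, FDR 1) at 0 h, 0.04 (SE 0.128, FDR 1) at 24 h and 2.67 (SE 0.182, FDR 1.04e-14) at 72 h. With the counts estimated for shared indices taken out, Lef1 was at 13.7 ± 4.79 CPM in XX 72 h in place of 21.2 CPM (10 to 32 counts per library in place of 21 to 47), and the log2 fold change at 72 h was 3.27 (SE 0.253, FDR 3.77e-13).

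Over the first 24 h of culture Lef1 fell in XY germ cells, from 183 ± 3.65 to 85.5 ± 17.6 CPM (SD, n = 4), which was -1.10 on the log2 scale (SE 0.114, FDR 0.00138). In XX germ cells it was at 156 ± 13.1 CPM at 0 h and 81.4 ± 8.74 CPM at 24 h, and the log2 difference of -0.94 (SE 0.117) missed the threshold by limma (FDR 0.0588) and passed it by edgeR (FDR 0.014). With the counts of shared indices taken out, limma called it as well (-1.12, SE 0.133, FDR 0.00429). Other cells' markers moved over the same 24 h in XY gonads. The 9 interstitial and Leydig markers summed to 119 to 295 CPM at 0 h and 42.5 to 64.3 CPM at 24 h, with a called fall of Col1a2 (100 to 23.7 CPM, log2 fold change -1.94, FDR 0.0026), and the pregranulosa marker Rspo1 rose (5.01 to 22.5 CPM, FDR 0.000254). Called in XX over these 24 h were a fall of Lhx1 (94.8 to 39.7 CPM, FDR 0.0062) and a rise of the germ cell marker Mael (58.9 to 178 CPM, FDR 8.47e-06). What part these markers had in the changes of Lef1 was not tested. The difference between the changes of Lef1 in XY and in XX was not called (log2 difference -0.17, 95% interval -0.49 to 0.16). From 24 h to 72 h Lef1 fell again in XX germ cells (log2 fold change -1.90, SE 0.189, FDR 8.56e-08, and -2.41, SE 0.26, with those counts taken out), and in XY germ cells it was at 142 ± 9.5 CPM at 72 h (log2 fold change 0.73, SE 0.117, FDR 0.282).

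Tcf7 (chromosome 11, 52143107 to 52174619) encodes TCF1, a TCF/LEF factor best known from T cells. In XX germ cells it was at 53.9, 58.2, 63.5 and 68.4 CPM at 0 h, at 39.7, 43.6, 48.7 and 54.5 CPM at 24 h and at 15.4, 15.5, 16.8 and 18.7 CPM at 72 h. In XY germ cells it was at 51.8, 55.6, 59.7 and 74.7 CPM at 0 h, at 51.8, 57.3, 60.9 and 69.1 CPM at 24 h and at 82.5, 98.6, 111 and 133 CPM at 72 h. The sexes overlapped at 0 h and 24 h and not at 72 h, and the fall in XX after 24 h left every library below all earlier XX libraries. The log2 fold change of XY over XX at 72 h was 2.62 (SE 0.222, FDR 1.69e-11). The fall in XX from 24 h to 72 h was a log2 fold change of -1.46 (SE 0.236, FDR 0.00199), a call that 1 of 15 other settings lost (FDR 0.0992). In XY germ cells it was 0.81 (SE 0.139, FDR 0.167). Tcf7 without the counts of shared indices was at 14.3 ± 1.5 CPM in XX 72 h in place of 16.6 CPM, and the sex difference at 72 h was 2.89 (SE 0.257, FDR 5.48e-11).

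Tcf7l1 (chromosome 6, 72603354 to 72766589) encodes TCF3, the TCF/LEF factor known mainly as a repressor of WNT targets in pluripotent cells. At 0 h it was at 73.4, 76.4, 76.4 and 81.8 CPM in XX and at 35.6, 46.6, 48.8 and 63.6 CPM in XY germ cells, so that the groups did not overlap, but the log2 fold change of -0.65 (SE 0.168) was not called (FDR 1). It was at 13.9 to 41.7 CPM in XX and 16.1 to 39.5 CPM in XY germ cells at 24 h. At 72 h it was at 1.29, 4.65, 4.82 and 8.03 CPM in XX and at 5.97, 9.32, 9.85 and 11.7 CPM in XY germ cells. Tcf7l1 fell from 24 h to 72 h in both sexes, with log2 fold changes of -3.19 in XX (SE 0.497, FDR 2.01e-05) and -1.68 in XY germ cells (SE 0.33, FDR 0.00413). The XX value at 72 h rested on 2 to 12 counts per library, and the sexes were not called apart there. With the counts of shared indices taken out, 0 to 6 counts per library were left in XX 72 h (1.2 ± 2.06 CPM in place of 4.7 CPM) and 5 to 19 in XY 72 h DMSO (6.07 ± 2.01 CPM in place of 9.21 CPM). The sex difference at 72 h was then called (log2 fold change 3.38, SE 0.84, FDR 0.00267), and the fall in XX was -5.91 (SE 0.765). The level of Tcf7l1 in XX 72 h germ cells therefore turned on how the shared indices were treated.

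Tcf7l2 (chromosome 19, 55730188 to 55922091), which encodes TCF4 and can act as activator or repressor, was at group means of 1.58 to 8.88 CPM with 1 to 48 counts per library. It was called in no comparison by limma. In XX germ cells it was at 0.622, 1.42, 2.79 and 3.96 CPM at 24 h and at 3.61, 5.82, 10.7 and 15.4 CPM at 72 h. The log2 difference was 1.97 (SE 0.621), with an FDR of 0.0631 by limma and 0.00722 by edgeR. The lowest 72 h library overlapped the 24 h group. The difference was called without the counts of shared indices (2.25, SE 0.65, FDR 0.0296).

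The 4 TCF/LEF genes together were at 296 ± 12.5 CPM in XX and 297 ± 7.71 CPM in XY germ cells at 0 h. The sum was 164 ± 24.3 and 179 ± 31.5 CPM at 24 h in DMSO, and 51.3 ± 4.68 and 264 ± 14.6 CPM at 72 h. Each molecule gives at most 1 count near its 3′ end, so the sum was not divided by length, and the share of a gene in it is compared between groups only. The share of Tcf7l1 was 26.1 ± 1.62% in XX and 16.4 ± 3.65% in XY germ cells at 0 h, and 9 ± 5.11% and 3.53 ± 1.05% at 72 h. The share of Tcf7 in XY germ cells was 20.3 ± 3.07% at 0 h, 33.7 ± 3.6% at 24 h and 40.1 ± 5.93% at 72 h. The share of Tcf7l2 reached 16.9 ± 9.33% in XX germ cells at 72 h, against 1.46 ± 1.17% at 24 h. These shares were not tested.

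**Figure D2:**
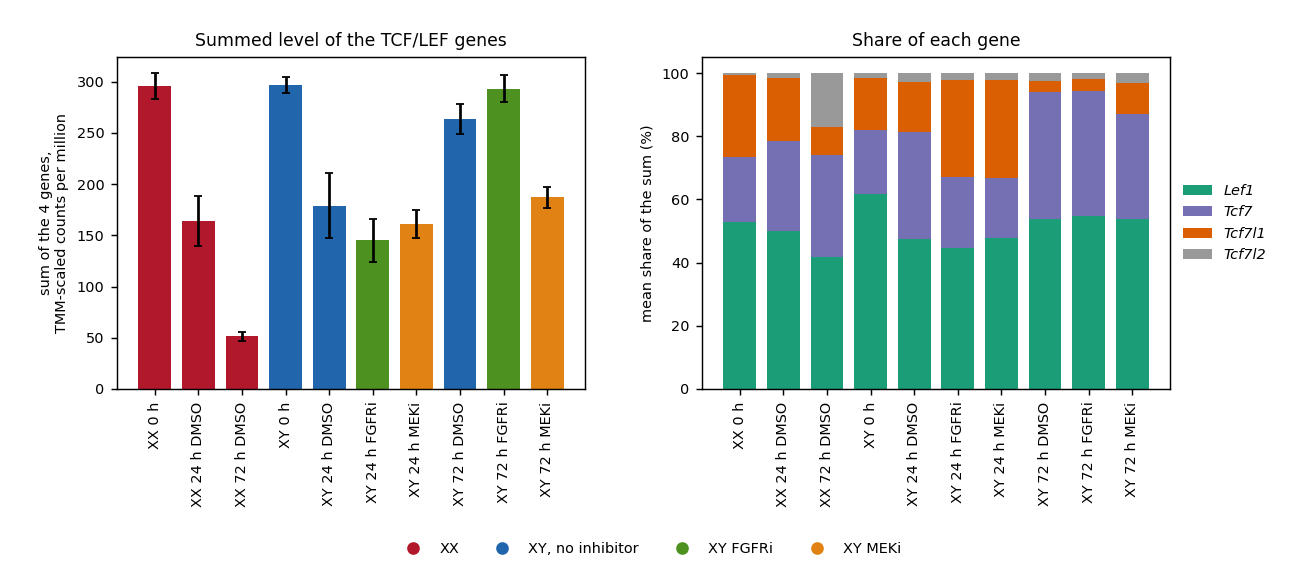
Left, sum of Lef1, Tcf7, Tcf7l1 and Tcf7l2 by group, in TMM-scaled CPM on an axis that starts at 0, with bars for the mean and error bars for the SD of 4 libraries. Right, mean share of each gene in that sum in percent. The sum was 51.3 CPM in XX 72 h and between 145 and 297 CPM in the other groups, and the share of Tcf7l1 was 3.53% in XY DMSO and 9.75% in XY MEKi germ cells at 72 h.

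Ctnnb1 (chromosome 9, 120757422 to 120789579), the coactivator that the pathway controls through protein stability, was called in no comparison. Its group means ran from 207 ± 22.1 CPM in XX 72 h to 362 ± 56.1 CPM in XX 0 h germ cells, and no neighbours in that order were apart beyond their ranges. At 72 h XY was above XX by 0.34 on the log2 scale, with a 95% interval of 0.10 to 0.57. These are levels of RNA and do not measure beta-catenin protein.

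Among the feedback and target genes, Axin2 and Nkd1 were called between the sexes. Axin2 began higher in XX and ended higher in XY germ cells, whereas Nkd1 was higher in XX at 24 h and at 72 h. Sp5 and Znrf3 were not called between the sexes at any time.

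Axin2 (chromosome 11, 108811169 to 108841609), the most widely used readout of canonical WNT signalling, was at 72.7, 81.1, 98.9 and 106 CPM in XX and at 23.7, 32.2, 33 and 35.7 CPM in XY germ cells at 0 h. It was the only member called at 0 h, 2.88 times as high in XX (log2 fold change -1.56 for XY over XX, SE 0.151, FDR 3.24e-06), in a comparison that called 3.0% of all genes. At 24 h in DMSO it was at 41.6, 51, 73.4 and 75.6 CPM in XX and at 25, 30.6, 32.5 and 40.4 CPM in XY germ cells. These groups did not overlap either, but the log2 fold change of -0.92 (SE 0.166) was called by edgeR (FDR 0.0384) and not by limma (FDR 0.177). At 72 h in DMSO the order was turned, with 13.4, 18.7, 20.1 and 25.4 CPM in XX and 32.2, 41.1, 44.8 and 45.3 CPM in XY germ cells. The log2 fold change at 72 h was 1.13 (SE 0.224, FDR 0.0232), a call that 5 of 16 other settings lost, among them leaving out any 1 of XX replicates 11 and 4 and XY replicates 2 and 5 (FDR up to 0.153). Axin2 without the counts of shared indices was at 15.7 ± 5.92 CPM in XX 72 h in place of 19.4 CPM, and this fold change was 1.53 (SE 0.272, FDR 0.00185).

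In XX germ cells Axin2 fell from 24 h to 72 h (log2 fold change -1.74, SE 0.218, FDR 1.65e-05), where the first 24 h gave -0.59 (SE 0.137, FDR 1). In XY germ cells the values for these steps, the first 24 h first, were 0.06 (SE 0.178, FDR 1) and 0.31 (SE 0.175, FDR 1). The difference between the sexes at 72 h less that at 0 h was itself tested, and was 2.70 on the log2 scale for Axin2 (SE 0.27, FDR 5.09e-09). Each of these sex differences was taken within 1 pool.

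Markers of other cells moved with the sexes at 0 h and with the culture of XX gonads. At 0 h the 9 interstitial and Leydig markers summed to 37.9 to 75.5 CPM in XX and 119 to 295 CPM in XY germ cells, the 3 mesonephric and epithelial markers to 81.1 to 113 and 227 to 303 CPM, the 4 endothelial markers to 3.07 to 4.9 and 8.23 to 12.5 CPM, the 7 blood markers to 23.1 to 41.5 and 39.2 to 255 CPM and the 6 Sertoli markers to 4.18 to 6.99 and 11.4 to 33 CPM. Lhx1 made up nearly all of the mesonephric and epithelial sum, while Pax2 was at 0.193 CPM in XX and 0.349 CPM in XY and Pax8 at 3.43 and 2.7 CPM, so that this sum describes 1 gene. Whether Lhx1 came from other cells or from germ cells was not tested in any comparison. Called among all these markers were Col1a2 (100 v 29.3 CPM, log2 fold change 1.64 for XY over XX, SE 0.277, FDR 0.0101) and Lhx1 (254 v 94.8 CPM, 1.36, SE 0.127, FDR 1.10e-05). Ptprc was at 0 in XX 0 h. From 24 h to 72 h in XX the interstitial and Leydig sum went from 29.6 to 45.1 CPM to 111 to 177 CPM, with called rises of Nr2f2 (log2 fold change 2.48, FDR 0.000172), Col1a1 (2.52, FDR 0.00282), Col1a2 (2.20, FDR 0.00115) and Hsd3b1 (2.86, FDR 0.000293). Fgf9 and Foxl2, of the Sertoli and pregranulosa lists, rose as well (4.66 and 2.72). Of the 6 germ cell markers Pou5f1 (-2.73), Dppa3 (-2.89) and Dnd1 (-3.01) fell, Mael rose (178 to 336 CPM, 1.00, FDR 0.00611), and Ddx4 (398 and 380 CPM) and Dazl (1460 and 1410 CPM) were not called. Lhx1 fell as well (-2.28). Their part in the difference of Axin2 at 0 h and in the falls of Lef1, Tcf7, Tcf7l1 and Axin2 was not tested.

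Nkd1 (chromosome 8, 89247890 to 89324577), an inducible antagonist that binds Dishevelled, was at 10.4, 10.5, 13.9 and 14.7 CPM in XX and at 6.23, 6.24, 8.77 and 10.2 CPM in XY germ cells at 0 h (log2 fold change -0.66, SE 0.3, FDR 1). At 24 h in DMSO it was at 16.5, 19.3, 22.4 and 25.3 CPM in XX and at 0, 3.11, 4.47 and 6.76 CPM in XY germ cells. It was the only member called at 24 h, in a comparison that called 9.99% of all genes, and was lower in XY (log2 fold change -2.50, SE 0.412, FDR 0.000342). At 72 h it was at 28.9, 31.5, 40.1 and 43.5 CPM in XX and at 13.4, 14.6, 17.3 and 18 CPM in XY germ cells (log2 fold change -1.16, SE 0.237, FDR 0.025). At each of the 3 times XX and XY were apart, but the call at 72 h was lost in 6 of 16 settings (FDR up to 0.405). Among them was leaving out any 1 of XX replicates 7 and 8 and XY replicates 2 and 4 (FDR up to 0.0914).

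Between the sexes at 24 h, markers of other cells differed too. The 6 Sertoli markers summed to 5.19 to 13.9 CPM in XX and 15.5 to 104 CPM in XY germ cells. Sox9 was called higher in XY (24 v 2.4 CPM, FDR 0.0161), as were Lhx1 (157 v 39.7 CPM, FDR 5.95e-09) and Rspo1 (22.5 v 8.1 CPM, FDR 0.0276). Pax2 (0.26 v 0.236 CPM) and Pax8 (1.04 v 1.02 CPM), of the same list as Lhx1, were not called, so that Lhx1 stood alone in its list. Bmp2, a pregranulosa marker, was called lower in XY (0.691 v 5.86 CPM, FDR 0.00256). Of the germ cell markers Dppa3 was higher in XY (2000 v 718 CPM, FDR 0.000157) and Mael lower (89.4 v 178 CPM, FDR 0.0221). The interstitial and Leydig sum was 29.6 to 45.1 CPM in XX and 42.5 to 64.3 CPM in XY, the endothelial sum 3.78 to 8.42 and 5.16 to 7.81 CPM and the blood sum 20.8 to 38.6 and 22.7 to 115 CPM. What part they had in the difference of Nkd1, and in those of the other pathway genes at 24 h, was not tested.

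From 24 h to 72 h Nkd1 rose in XY germ cells, from 3.59 ± 2.83 to 15.8 ± 2.15 CPM (log2 fold change 2.11, SE 0.42, FDR 0.00186). In XX germ cells it was at 12.4 ± 2.25, 20.9 ± 3.78 and 36 ± 6.92 CPM at the 3 times, in groups that did not overlap, and limma called neither step (log2 fold changes 0.74 and 0.77, FDR 1 and 0.485). Over the same time in XY gonads the endothelial sum went from 5.16 to 7.81 CPM to 37.9 to 40.5 CPM. Kdr (0.216 to 1.34 CPM) and Tek (0.592 to 0.924 CPM), of the endothelial list, stayed low and were not called. The interstitial and Leydig sum went from 42.5 to 64.3 CPM to 119 to 241 CPM. Called rises were those of Pax8 (1.04 to 17.9 CPM, FDR 9.93e-08), Flt1 (3.84 to 27.3 CPM, FDR 6.47e-09), Cdh5 (1.37 to 9.72 CPM, FDR 0.000751), Pdgfra (2.44 to 11 CPM, FDR 0.0014), Col1a1 (6.19 to 29.4 CPM, FDR 0.000499), Col1a2 (23.7 to 97.4 CPM), Wnt4 (1.15 to 6.1 CPM, FDR 0.00212), Bmp2 (0.691 to 4.42 CPM, FDR 0.00112) and Fgf9 (1.06 to 3.5 CPM, FDR 0.046), and Lhx1 fell (157 to 9.17 CPM, FDR 6.58e-15). Of the germ cell markers Mael (89.4 to 547 CPM, FDR 9.48e-20) and Ddx4 (240 to 530 CPM, FDR 7.35e-07) rose and Dppa3 fell (2000 to 871 CPM, FDR 0.00151). Their part in the changes of Nkd1, Sp5, Tcf7l1, Rspo4, Sfrp2 and Wnt3 in XY germ cells from 24 h to 72 h was not tested.

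Sp5 (chromosome 2, 70305267 to 70308073), a transcription factor gene that is a direct WNT target in embryos, was low, with 0 to 31 counts per library. It was at 8.5, 8.53, 8.64 and 11.9 CPM in XX 0 h and at 2.63, 5.35, 5.45 and 9.41 CPM in XY 0 h germ cells (log2 fold change -0.67, SE 0.349, FDR 1). In XY germ cells in DMSO it was at 2.6, 5.85, 7.26 and 7.84 CPM at 24 h and at 0.448, 1.67, 1.99 and 2.66 CPM at 72 h. It fell (log2 fold change -2.05, SE 0.545, FDR 0.0203), although the highest 72 h library reached the lowest 24 h library, and 4 of 15 settings lost the call, among them leaving out XY 24 h DMSO replicate 5 or XY 72 h DMSO replicate 2 (FDR up to 0.169). XX germ cells had 1.35 ± 1.21 CPM at 72 h, with 0 to 5 counts per library (log2 fold change from 24 h -1.79, SE 0.678, FDR 0.141).

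Znrf3 (chromosome 11, 5226324 to 5394939) was called in no comparison, with group means from 18.4 ± 3.23 CPM in XY 24 h FGFRi to 43.8 ± 14.4 CPM in XX 72 h germ cells. All its neighbours in that order overlapped. Rnf43 (chromosome 11, 87553548 to 87626377), the paralogue of Znrf3, had 0 to 12 counts per library. It was at 1.34, 2.09, 2.66 and 3.32 CPM in XY 72 h DMSO and at 1.51, 1.72, 2.03 and 2.32 CPM in XY 72 h FGFRi germ cells, and at 0, 0, 0.895 and 0.991 CPM in XY 72 h MEKi and 0, 0, 0.535 and 1.55 CPM in XX 72 h germ cells. The XY DMSO and FGFRi libraries at 72 h were above all MEKi libraries. In a fit with no filter on low counts, Rnf43 was lower with MEKi than DMSO at 72 h (log2 fold change -2.78, SE 0.668, FDR 0.0452), higher in XY than in XX at 72 h (2.08, SE 0.586, FDR 0.043) and higher at 72 h than at 24 h in XY germ cells (2.88, SE 0.597, FDR 0.00341).

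Over the members together, 1 of 9 tested was called at 0 h, 1 at 24 h and 4 at 72 h between XY and XX germ cells. The comparison at 72 h called 41.0% of all genes, so that 4 of 9 is near the share of all genes. The median log2 fold change of the 9 was -0.42 at 0 h, -0.15 at 24 h and 0.41 at 72 h, against 0.03, -0.01 and 0.10 for all genes. Over the first 24 h of culture 0 of 9 were called in XX by limma, where 2 had an unadjusted p under 0.05 and edgeR called 2 (Lef1 and Tcf7l1), and 1 of 9 in XY germ cells, beside 3.23% and 2.94% of all genes. From 24 h to 72 h 4 of 9 were lower in XX (Axin2, Lef1, Tcf7 and Tcf7l1) and none higher, with 22.2% of all genes called (11.9% lower and 10.3% higher, a balance that turned with DESeq2 size factors, from 46.5% to 55.7% of calls higher) and a median of -1.46 against -0.10 for all genes. In XY germ cells 1 was higher and 2 lower, with 27.3% of all genes called (16.0% higher and 11.3% lower).

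**Figure D3:**
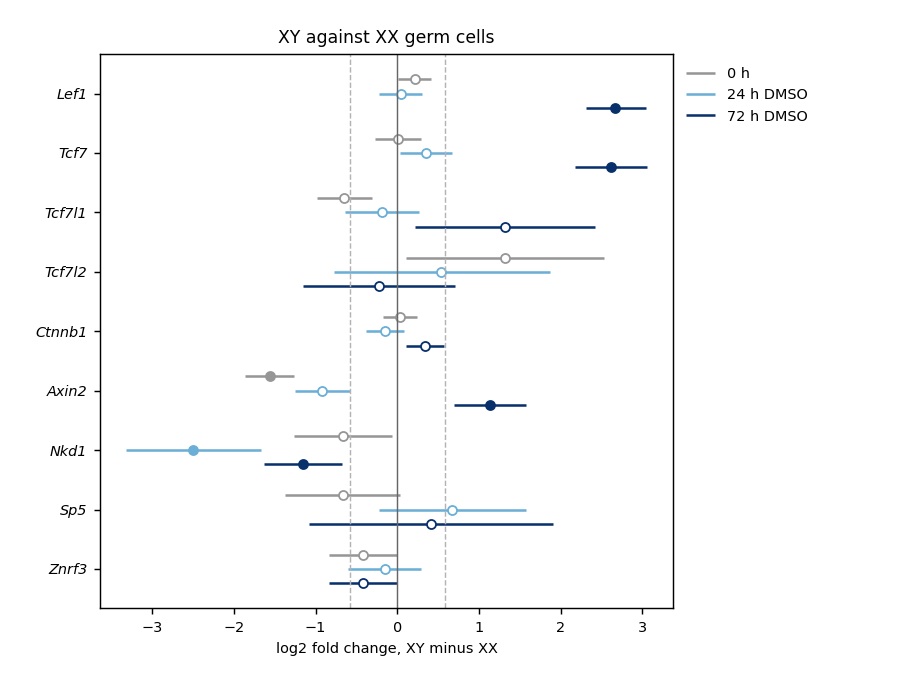
Log2 fold change of XY over XX germ cells for the 9 members tested, at 0 h, 24 h and 72 h in DMSO, with lines for the 95% interval. Filled points were called by limma against a 1.5-fold change (dashed lines), open points were not. Axin2 lay below 0 at 0 h and above it at 72 h, and Lef1 and Tcf7 moved from near 0 to 2.67 and 2.62.

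The sex difference at 72 h less that at 0 h was called for 4 of 9 members, against 28.9% of all genes. Beside Axin2 these were Tcf7 (2.61, SE 0.262, FDR 7.32e-09), Lef1 (2.47, SE 0.208, FDR 1.08e-10) and Tcf7l1 (1.96, SE 0.576, FDR 0.0375) on the log2 scale. With the counts of shared indices taken out these were 3.21 for Axin2, 3.04 for Tcf7, 3.15 for Lef1 and 4.07 (SE 0.859, FDR 0.000515) for Tcf7l1. The calls of Axin2, Lef1 and Tcf7 held in all 23 other settings, and that of Tcf7l1 was lost in 7 (FDR up to 0.241). Among them was leaving out XY 0 h replicate 6, XX 72 h replicate 8 or XY 72 h DMSO replicates 2 or 4 (FDR up to 0.182). The sex difference at 24 h less that at 0 h was called by limma for 0 of 9 members (1 with an unadjusted p under 0.05, edgeR 0), and for 0.452% of all genes. That 1 was Nkd1, at -1.83 (SE 0.509, FDR 0.359).

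Markers of other cells moved with the sexes at 72 h as well. The summed level of 4 endothelial markers was 2.59 to 4.68 CPM in XX and 37.9 to 40.5 CPM in XY DMSO germ cells. Called were Flt1 (2.97 v 27.3 CPM, FDR 1.08e-08) and Cdh5 (0.268 v 9.72 CPM, FDR 5.17e-06), which made up most of the XY sum. Kdr was at 0.425 CPM in XX and 1.34 CPM in XY, and Tek at 0 and 0.924 CPM, and neither was called. The 3 mesonephric and epithelial markers summed to 6.19 to 11.4 and 23.7 to 30.9 CPM (Pax8 at 0.586 and 17.9 CPM, Lhx1 at 8.7 and 9.17 CPM), the 6 Sertoli markers to 27.4 to 41.4 and 22 to 34.9 CPM, the 5 pregranulosa markers to 24.6 to 54.6 and 28.5 to 38.9 CPM, and the 9 interstitial and Leydig markers to 111 to 177 and 119 to 241 CPM. Within the lists whose sums overlapped, Foxl2, a granulosa factor, was 13.2 times as high in XX as in XY (9.41 v 0.714 CPM, FDR 2.03e-05) and Fgf9 6.83 times as high (23.9 v 3.5 CPM, FDR 1.50e-05). Hsd3b1 was called higher in XX too (15.3 v 8.2 CPM, FDR 0.0446), and Tcf21 lower (0.987 v 4.93 CPM, FDR 0.00429). Not called were Sox9 (6.19 v 10.6 CPM), Ptgds (4.13 v 9.84 CPM), Rspo1 (10.5 v 16.7 CPM) and Fst (2.85 v 6.67 CPM), lower in XX by their means. Wnt4 (7.85 v 6.1 CPM) and Bmp2 (6.92 v 4.42 CPM), also not called, were higher. Pou5f1, whose regulatory sequence drives the reporter used for sorting, was at 8.34 CPM in XX and 61.9 CPM in XY DMSO germ cells. Dppa3 (96.2 v 871 CPM) and Dnd1 (14.7 v 313 CPM) were also called higher in XY, and the other germ cell markers were not called. Their part in the differences of Lef1, Tcf7, Axin2 and Nkd1 was not tested.

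The inhibitors were used to ask which changes of XY germ cells need FGF receptor or MEK1/2 signalling in the gonad. By limma 0 of 9 members were called with either inhibitor at either time. At 24 h this stood beside 0.262% of all genes with FGFRi and 0.164% with MEKi, and 1 member had an unadjusted p under 0.05 in each (Tcf7). At 72 h it stood beside 0.00656% with FGFRi and 9.12% with MEKi, and no member had an unadjusted p under 0.05. These p-values were against a 1.5-fold change. Tested against no change with an observed fold above 1.5, limma eBayes called Tcf7 at 24 h with FGFRi (FDR 0.00134) and MEKi (FDR 0.000307). It also called Tcf7 with MEKi at 72 h (FDR 6.16e-06), and Tcf7l1 with MEKi at 24 h (FDR 0.0411) and 72 h (FDR 0.0275). edgeR called 0 members in each of the 4 comparisons. Both inhibitors were compared with the same DMSO libraries.

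The members that did not overlap DMSO at 24 h were Tcf7 with either inhibitor and Tcf7l1 with MEKi, as 10.7% of all genes did with FGFRi and 10.5% with MEKi, and neither was called. At 24 h it was at 51.8, 57.3, 60.9 and 69.1 CPM in DMSO, at 22.7, 29.7, 33.4 and 37.1 CPM in MEKi and at 21.2, 24.3, 39 and 43.6 CPM in FGFRi germ cells. The lowest DMSO library was above every library with an inhibitor, with log2 fold changes of -0.94 for MEKi (SE 0.175, 95% interval -1.29 to -0.59, FDR 1) and -0.90 for FGFRi (SE 0.189, 95% interval -1.28 to -0.52, FDR 1). At 72 h it was at 52.6, 63.5, 65.5 and 68.2 CPM in MEKi and at 98.3, 114, 122 and 131 CPM in FGFRi germ cells, beside 82.5 to 133 CPM in DMSO. MEKi did not overlap DMSO or FGFRi, and FGFRi overlapped DMSO. Markers of other cells stood apart at 24 h too. The 7 blood markers summed to 183 to 468 CPM in MEKi, 22.7 to 115 CPM in DMSO and 56.2 to 79.1 CPM in FGFRi germ cells. The globin genes Hbb-y (92.8 v 17.9 CPM, log2 fold change 3.55, FDR 0.00545), Hba-x (35.4 v 5.09 CPM, 3.18, FDR 0.000697) and Hba-a2 (48.3 v 15.3 CPM, 2.02, FDR 0.0441) were called higher with MEKi than with DMSO at 24 h. The interstitial and Leydig sum was 85 to 106 CPM with MEKi against 42.5 to 64.3 CPM in DMSO, and the mesonephric and epithelial sum, mostly Lhx1, was 72.3 to 92.1 CPM against 103 to 201 CPM. With FGFRi the endothelial sum was 8.15 to 10.9 CPM against 5.16 to 7.81 CPM in DMSO. Their part in the levels of Tcf7 and Tcf7l1 was not tested. At 72 h the log2 fold change of Tcf7 was -0.70 for MEKi (SE 0.125, 95% interval -0.95 to -0.45, FDR 0.721) and 0.16 for FGFRi (SE 0.121, 95% interval -0.09 to 0.40, FDR 1).

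Lef1 and Tcf7l1 lay on opposite sides of DMSO with MEKi at 72 h. Lef1 was at 88.5, 97.8, 102 and 113 CPM in MEKi against 135 to 156 CPM in DMSO and 143, 154, 172 and 173 CPM in FGFRi germ cells (log2 fold change for MEKi -0.50, SE 0.105, 95% interval -0.71 to -0.29, FDR 1). Tcf7l1 was at 13.7, 14.7, 19.9 and 24 CPM in MEKi against 5.97 to 11.7 CPM in DMSO and 7.33, 10.3, 11.6 and 12 CPM in FGFRi germ cells (log2 fold change for MEKi 0.86, SE 0.328, 95% interval 0.20 to 1.52, FDR 0.793). Neither gene overlapped DMSO with MEKi at 72 h. Without the counts of shared indices, whose estimate was highest for the MEKi libraries, Lef1 was at 106 ± 15.8 CPM and Tcf7l1 at 15.8 ± 4.95 CPM in MEKi, against 139 ± 9.83 and 6.07 ± 2.01 CPM in DMSO germ cells. Tcf7l1 at 24 h was at 43.3, 47.1, 49.7 and 59 CPM in MEKi and at 33.3, 33.8, 46 and 66 CPM in FGFRi germ cells, against 16.1 to 39.5 CPM in DMSO (log2 fold changes 0.68 and 0.47, FDR 1 for both). With MEKi at 72 h 4 of 9 members did not overlap DMSO (Lef1 and Tcf7 lower, Tcf7l1 and Axin2 higher), as 38.3% of all genes did.

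The intervals of the feedback genes at 72 h were narrow for Axin2 and wide for Sp5. Axin2 was at 46.6, 52.5, 53 and 53.1 CPM in MEKi and at 41.1, 41.8, 46.4 and 48.3 CPM in FGFRi germ cells, with log2 fold changes of 0.31 (95% interval 0.01 to 0.61) and 0.13 (95% interval -0.18 to 0.44). Nkd1 was at 14.4 ± 2.62 CPM in MEKi, 16.9 ± 2.99 CPM in FGFRi and 15.8 ± 2.15 CPM in DMSO germ cells, with log2 fold changes of -0.15 (95% interval -0.62 to 0.32) and 0.03 (95% interval -0.45 to 0.50). Sp5 was at 2.48, 2.97, 4.66 and 5.49 CPM in MEKi germ cells (log2 fold change 1.24, 95% interval 0.16 to 2.33, FDR 0.549), and the groups overlapped.

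**Figure D4:**
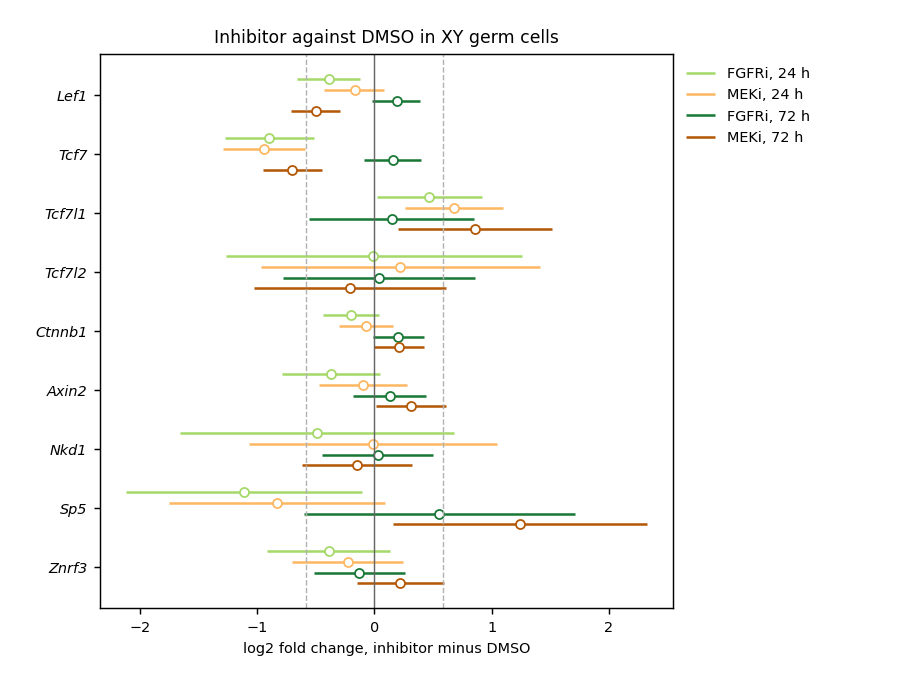
Log2 fold change of inhibitor over DMSO in XY germ cells for the 9 members tested, with lines for the 95% interval. All points are open, since none was called by limma against a 1.5-fold change (dashed lines). Tcf7 lay below 0 with both inhibitors at 24 h and with MEKi only at 72 h, at -0.70 against 0.16 for FGFRi.

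MEKi was also compared directly with FGFRi at the same dose. At 72 h limma called 0 of 9 members and 12.7% of all genes (1 member with an unadjusted p under 0.05), and edgeR called 1, which was Tcf7. The log2 fold change of Tcf7 for MEKi over FGFRi was -0.86 (SE 0.119, FDR 0.0848 by limma and 0.0303 by edgeR), and 4 of 16 settings called it, with an FDR of 0.0169 without XY 72 h FGFRi replicate 6. Of the markers, Nr2f2 (25.6 v 5.89 CPM, FDR 0.00025) and Lhx1 (23.7 v 6.98 CPM, FDR 0.00114) were called higher with MEKi. Pax8 (5.18 v 20.6 CPM), Flt1 (9.59 v 25.3 CPM), Cdh5 (1.81 v 6.07 CPM), Mael (260 v 543 CPM) and Dnd1 (126 v 336 CPM) were called lower. Their part in the level of Tcf7 was not tested. At 24 h 0 of 9 members were called by limma, none had an unadjusted p under 0.05, and edgeR called 0, beside 0.105% of all genes.

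Whether an inhibitor acted differently at 72 h and at 24 h was tested as well. For MEKi 0 of 9 members were called by limma (1 with an unadjusted p under 0.05, edgeR 0), against 1.88% of all genes. That member was Sp5, at 2.07 (SE 0.71, FDR 0.326). For FGFRi 0 of 9 were called (1 with an unadjusted p under 0.05, edgeR 0), against 0.0328% of all genes, and that member was Tcf7, at 1.06 (SE 0.224, FDR 1). The FGFRi term takes its 24 h DMSO libraries from the other pool.

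XY germ cells with MEKi were set against XX germ cells in DMSO to place them between the sexes. At 24 h 1 of 9 members was called, against 8.62% of all genes, and it was Nkd1, lower in XY MEKi (log2 fold change -2.51, SE 0.409, FDR 0.000348). Axin2 was at 26.9 to 34.9 CPM against 41.6 to 75.6 CPM in XX (log2 fold change -1.01, SE 0.174, FDR 0.0866 by limma and 0.0254 by edgeR). At 72 h 5 of 9 were called, against 30.0% of all genes (17.2% higher and 12.8% lower). Lef1 (2.18, SE 0.18, FDR 1.03e-10), Tcf7 (1.92, SE 0.221, FDR 1.16e-06), Axin2 (1.44, SE 0.209, FDR 0.00048) and Tcf7l1 (2.18, SE 0.495, FDR 0.00528) were higher in XY MEKi germ cells on the log2 scale, and Nkd1 was lower (-1.31, SE 0.203, FDR 0.00212). With the counts of shared indices taken out Tcf7l1 was at 4.54 (SE 0.777). The call of Tcf7l1 was lost in 2 of 16 settings (FDR up to 0.221), among them without XX 72 h replicate 8 (FDR 0.0711). That of Nkd1 was lost in 2 of 16 as well (FDR up to 0.554), among them with no filter on low counts.

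Markers also differed between XY MEKi and XX DMSO germ cells. At 24 h the blood sum was 183 to 468 CPM against 20.8 to 38.6 CPM, with Hba-x (35.4 v 1.18 CPM, FDR 2.02e-05), Hbb-y (92.8 v 5.14 CPM, FDR 0.00192), Hba-a1 and Hba-a2 called higher. So were Sox9 (16.6 v 2.4 CPM, FDR 0.0118), Ptgds (13.3 v 1.75 CPM, FDR 0.00478), Col1a2 (47.2 v 14 CPM, FDR 0.0338), Pou5f1 (117 v 55.7 CPM) and Dppa3 (2110 v 718 CPM), whereas Bmp2 (0.746 v 5.86 CPM, FDR 0.0346) and Mael (69 v 178 CPM) were lower. At 72 h Fgf9 (1.61 v 23.9 CPM, FDR 3.96e-08), Foxl2 (1.55 v 9.41 CPM, FDR 0.00029) and Hsd3b1 (3.07 v 15.3 CPM, FDR 6.69e-05) were lower, and Flt1 (9.59 v 2.97 CPM, FDR 0.00596), Pax8 (5.18 v 0.586 CPM, FDR 0.00418), Lhx1 (23.7 v 8.7 CPM, FDR 0.0244), Pou5f1 (74.4 v 8.34 CPM), Dppa3 (851 v 96.2 CPM) and Dnd1 (126 v 14.7 CPM) higher. What part they had in the members called was not tested.

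The order of group means placed these genes across all 10 groups. Lef1 was highest in XY 0 h (183 ± 3.65 CPM), which was apart from the next group, and XX 72 h (21.2 ± 4.77 CPM) was apart from all others. Between them XY 72 h FGFRi, XX 0 h and XY 72 h DMSO overlapped from neighbour to neighbour, as did XY 72 h MEKi and all 24 h groups below it. Tcf7 was highest in XY 72 h FGFRi (116 ± 13.9 CPM) and XY 72 h DMSO (106 ± 21.2 CPM), which overlapped, and XY 72 h MEKi (62.5 ± 6.84 CPM) was apart from both. Nkd1 in XX 72 h (36 ± 6.92 CPM) was apart from every other group, and XX 0 h (12.4 ± 2.25 CPM) was apart from XY 0 h (7.86 ± 1.96 CPM) and the XY 24 h groups. All neighbours of Axin2 in this order overlapped.

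Over the 10 group means of log2 CPM, which share libraries and pools, Lef1 went with Tcf7 (Pearson r = 0.87) and with Ctnnb1 (0.83), Nkd1 with Znrf3 (0.83) and Tcf7l1 with Sp5 (0.84), whereas Tcf7l1 went against Tcf7l2 (-0.86). Among all other genes tested, the 3 closest to Lef1 were Selenom (0.993), Rnf126 (0.990) and Nup62 (0.985). Closest to Axin2 were Trnp1 (0.939), Kcnj12 (0.934) and Ppm1m (0.922), and closest to Nkd1 were Fgd6 (0.985), Fmn2 (0.984) and Mfsd6 (0.975). Closest to Tcf7 were Gpr137b-ps (0.981), Dcaf7 (0.975) and Tgfb1 (0.973), and closest to Tcf7l1 were Tpd52l1 (0.987), Prdm14 (0.979) and Gsta4 (0.978). For Sp5 they were Ptms (0.958), Ovol2 (0.942) and Syt9 (0.941). These are descriptions over 10 groups.

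Of 108 other genes of the pathway, listed by role, 73 were tested. Between XY and XX germ cells 2 were higher and 7 lower at 0 h, 4 higher and 11 lower at 24 h, and 21 higher and 8 lower at 72 h, where 3.0%, 9.99% and 41.0% of all genes were called in either direction. At 72 h these counts are near the share of all genes. Their median log2 fold change was -0.07, -0.08 and 0.31, against 0.03, -0.01 and 0.10 for all genes.

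Of 19 WNT ligands 5 were tested. Wnt3, a ligand of the canonical pathway, was higher in XY than in XX at 0 h (36 ± 2.35 v 7.59 ± 1.44 CPM, log2 fold change 2.26, SE 0.22, FDR 7.04e-08), at 24 h (26.6 ± 3.16 v 4.8 ± 1.9 CPM, 2.47, FDR 3.2e-06) and at 72 h (9.25 ± 1.97 v 0.664 ± 1.01 CPM, 3.69, FDR 8.86e-06). It fell from 24 h to 72 h in both sexes. Wnt5b was also higher in XY at 72 h (6.58 ± 2.21 v 0.931 ± 0.842 CPM, FDR 0.00141).

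The R-spondins amplify WNT signals at the receptor, and PORCN and WLS are needed to make and release WNT proteins. All 6 genes of this group were tested. Porcn was higher in XX than in XY at 0 h (95.5 ± 10.8 v 9.08 ± 4.73 CPM, log2 fold change -3.36 for XY over XX, SE 0.236, FDR 9.59e-14) and at 24 h (64.8 ± 9.46 v 7.93 ± 1.31 CPM, FDR 3.32e-11). At 72 h it was at 6.75 ± 1.93 CPM in XX and 7.24 ± 1.21 CPM in XY germ cells, after a fall in XX (log2 fold change -3.29, SE 0.319, FDR 5.78e-10). Rspo4 rose in XY germ cells from 24 h to 72 h, from 5.9 ± 6.84 to 70.3 ± 11 CPM (log2 fold change 4.31, SE 0.319, FDR 3.15e-14), and was higher there than in XX (1.29 ± 0.634 CPM, FDR 4.27e-13). It was lower with MEKi at 72 h (29.4 ± 2.06 CPM, log2 fold change -1.19, SE 0.131, FDR 0.000415) and was at 62.3 ± 4.43 CPM with FGFRi.

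Of 18 receptors 13 were tested. Lgr4, a receptor for R-spondins, was higher in XY than in XX at 0 h (208 ± 46.1 v 69.1 ± 8.54 CPM, log2 fold change 1.62, SE 0.151, FDR 1e-06) and lower at 72 h (15.1 ± 4.63 v 39 ± 7.28 CPM, -1.41, SE 0.299, FDR 0.0116). With MEKi at 72 h it was higher than in DMSO (48.2 ± 9.33 CPM, log2 fold change 1.62, SE 0.269, FDR 0.00369). Ror2, a receptor of non-canonical WNT signalling, was higher in XX at 0 h (36 ± 4.4 v 9.38 ± 1.93 CPM, FDR 1.98e-05). It fell in XX from 24 h to 72 h (log2 fold change -3.11, FDR 2.39e-06). At 72 h it was lower in XX than in XY (2.36 ± 1.35 v 9.78 ± 4.33 CPM, FDR 0.0168). The Frizzled receptor gene Fzd10 was higher with MEKi than DMSO at 72 h (13.1 ± 4.64 v 2.7 ± 1.42 CPM, log2 fold change 2.5, SE 0.406, FDR 0.00033).

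Of 14 secreted inhibitors and their partners 7 were tested. Sfrp2, which encodes a WNT-binding protein, was higher in XY than in XX at 24 h (103 ± 16.8 v 31.9 ± 5.12 CPM, FDR 2.67e-07), fell in XY by 72 h to 13.5 ± 4.35 CPM (log2 fold change -2.97, SE 0.216, FDR 1.5e-13), and was higher with MEKi at 72 h (69 ± 10.9 CPM, log2 fold change 2.35 over DMSO, SE 0.213, FDR 5.43e-09). The MEKi effect on Sfrp2 differed between 72 h and 24 h (2.75, SE 0.25, FDR 3.04e-08). Sfrp1 was higher in XY at 72 h (58 ± 4.69 v 12.8 ± 4.75 CPM, FDR 1.36e-08). Notum, a target gene whose product inactivates WNT proteins, was higher in XX at 0 h (18.2 ± 3.33 v 5.66 ± 1.17 CPM, FDR 0.00378) and 24 h (9.99 ± 1.87 v 1.3 ± 0.657 CPM, FDR 0.000117). Kremen2, a co-receptor for Dickkopf inhibitors, was lower with MEKi than DMSO at 72 h (4.37 ± 1.7 v 14 ± 2.31 CPM, FDR 0.00329).

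Of 17 genes for Dishevelled proteins and the degradation complex 16 were tested, and limma and edgeR called 0 between the sexes at 0 h and at 24 h, with 0 at an unadjusted p under 0.05. At 72 h, where 41.0% of all genes were called, 4 were higher in XY and 4 lower, which is near that share. Among them were Dvl2 (102 ± 11.1 v 23.2 ± 7.82 CPM, FDR 1.25e-10) and the casein kinase gene Csnk1e (158 ± 2.81 v 47.5 ± 5.79 CPM, FDR 4.79e-10), which were higher, and the kinase gene Gsk3a (14.4 ± 4.27 v 50.4 ± 12.2 CPM, FDR 1.01e-05), which was lower. Of 17 genes for nuclear partners of beta-catenin 16 were tested. At 72 h 6 were higher in XY than in XX and none lower, where 22.8% of all genes were higher and 18.1% lower, among them the coactivator gene Crebbp (687 ± 44 v 288 ± 31.9 CPM, FDR 2e-09) and the corepressor gene Tle3 (28.3 ± 6.62 v 4.19 ± 1.92 CPM, FDR 2.06e-06). Tle4 of this list was not called (log2 fold change -0.86, FDR 0.111). With the counts of shared indices taken out it was called lower in XY (-1.13, SE 0.187, FDR 0.00793). Tle6, a relative of Tle3, was lower with MEKi than DMSO at 72 h (27.8 ± 8.69 v 59.8 ± 6.78 CPM, log2 fold change -1.06, SE 0.151, FDR 0.0206).

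Of 17 other target genes 10 were tested, and those called at 0 h and 24 h were all higher in XX germ cells, 4 at 0 h and 5 at 24 h, where 1.65% and 5.99% of all genes were. At 24 h they included the cyclin gene Ccnd1 (159 ± 28.3 CPM in XX v 16.4 ± 1.49 CPM in XY, log2 fold change -3.25 for XY over XX, SE 0.194, FDR 4.11e-16) and the homeobox genes Msx1 (42.5 ± 10.2 v 1.85 ± 1.7 CPM, FDR 2.18e-09) and Msx2 (10.5 ± 5.66 v 0.154 ± 0.18 CPM, FDR 8.38e-06). Msx1 and Msx2 are targets of BMP signalling as well, and Ccnd1 answers to many mitogenic signals. From 24 h to 72 h 7 of the 10 fell in XX germ cells and none rose, beside 11.9% of all genes that fell and 10.3% that rose, among them Ccnd1 (to 28.4 ± 6.09 CPM, FDR 5.27e-12). Ccnd1 was higher with MEKi than DMSO at 72 h (28.3 ± 6.65 v 9.74 ± 3.12 CPM, log2 fold change 1.49, SE 0.26, FDR 0.00878). At 72 h in DMSO 3 of these genes were higher in XY and 2 lower.

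With the inhibitors at 24 h, limma called 0 of the 73 pathway genes tested. For FGFRi 4 had an unadjusted p under 0.05 and edgeR called 2, and for MEKi these counts were 3 and 1. With FGFRi at 72 h limma and edgeR called 0, with 0 at an unadjusted p under 0.05. With MEKi at 72 h 4 were higher and 3 lower, those named above, beside 4.01% of all genes higher and 5.11% lower. Markers of other cells moved there as well. The 4 endothelial markers summed to 10.9 to 17.6 CPM in MEKi and 37.9 to 40.5 CPM in DMSO germ cells. Cdh5 (1.81 v 9.72 CPM, log2 fold change -2.54, FDR 0.000942) and Flt1 (9.59 v 27.3 CPM, -1.46, FDR 0.000169) were called lower. Kdr (1.21 v 1.34 CPM) and Tek (1.29 v 0.924 CPM) were not called. The epithelial marker Pax8 (5.18 v 17.9 CPM, -1.78, FDR 0.00061) and the germ cell markers Mael (260 v 547 CPM) and Dnd1 (126 v 313 CPM) were also called lower. The part of these markers in the pathway genes called with MEKi was not tested.

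The shared indices bore on several of these pathway genes. Over all contrasts, 175 of 187 calls of pathway genes were also made with the counts of shared indices taken out, 12 were not and 38 were added, and no call turned its direction. Porcn was then at 1.86 ± 1.59 CPM in XX 72 h in place of 6.75 CPM, and was called higher in XY at 72 h (log2 fold change 2.52, SE 0.647, FDR 0.00634). Its fall in XX from 24 h to 72 h went from -3.29 to -5.75 (SE 0.579). For MEKi against DMSO at 72 h, 6 of 7 calls were made and that of Tle6 was not (-0.90, SE 0.173, FDR 0.218), while Dkk3, Fzd7 and Gsk3a were added. Lgr4 was at 1.68 ± 1.95 CPM in DMSO in place of 15.1 CPM and at 38.4 ± 12.4 CPM in MEKi in place of 48.2 CPM, so that its log2 fold change went from 1.62 to 5.09 (SE 0.755). That of Fzd10 went from 2.5 to 5.0 (SE 0.622), on 0.72 ± 1.44 CPM in DMSO. Sfrp2 (2.60, SE 0.289), Ccnd1 (1.69, SE 0.286) and Rspo4 (-1.03, SE 0.157) moved less with MEKi at 72 h. The rise of Rspo4 in XY from 24 h to 72 h went from 4.31 to 7.62 (SE 0.671), on 3.28 ± 6.56 CPM at 24 h, and the sex difference of Lgr4 at 72 h from -1.41 to -5.21 (SE 0.763). For FGFRi, for which the counts as deposited gave no call, Ccnd1 and Porcn were called lower than in DMSO at 72 h and Rspo4 higher at 24 h. Ccnd1 was left at 0 CPM in XY 72 h FGFRi in place of 8.64 CPM. Low levels at 72 h in genes that were high in the library with the same index, such as Lgr4 at 15.1 CPM in XY DMSO, are therefore uncertain.

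**Figure D5:**
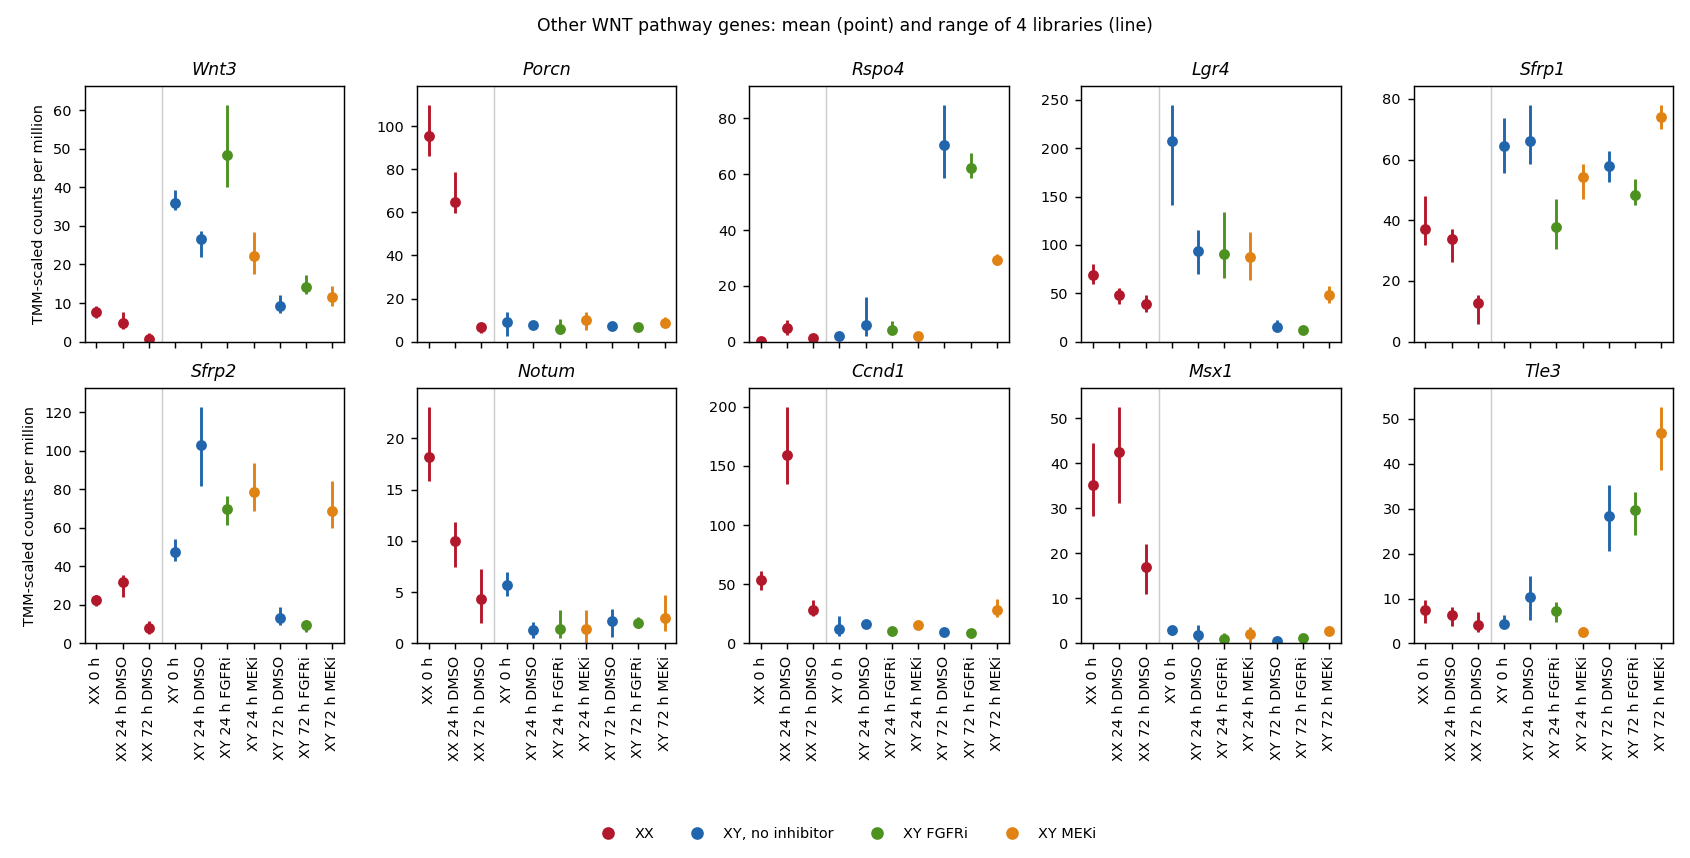
Levels of 10 other pathway genes by group, as TMM-scaled CPM on axes that start at 0, with points for the mean and lines for the range of 4 libraries. Porcn, Notum, Ccnd1 and Msx1 were highest in XX germ cells at 0 h or 24 h, Rspo4 rose in XY germ cells at 72 h, and Sfrp2 and Lgr4 were higher with MEKi than with DMSO at 72 h.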

How the data were processed

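Oct4-eGFP-positive germ cells of mouse gonads were profiled by bulk 3′ RNA-seq with unique molecular identifiers (UMIs), 40 libraries in 10 groups of 4. Per the labels and the methods, the authors aligned reads to GRCm39 with Rsubread and counted UMIs per gene with scPipe, and deposited the resulting counts without normalization. Tool versions and the annotation release are not given in the sources used here. The priming at poly(A) tails means that counts come from the 3′ end and are not divided by length. Identifiers were matched to GENCODE M39 (40391 of 42422 genes, the rest holding 1.05% of counts). Totals were 1178953 to 5199153 counts per library, which limits calls for genes with few counts.

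Genes were filtered with filterByExpr (minimum count 10, minimum total 15), which kept 15252 genes and 99.2% of counts. Counts were scaled by TMM in edgeR 4.0.16 and fitted in limma 3.58.1 with voomWithQualityWeights, 1 mean per group over all 40 libraries. Differences were tested with treat against a 1.5-fold change (log2 0.585), two-sided, and called at a Benjamini-Hochberg FDR below 0.05 over all genes tested. Every FDR and unadjusted p is limma's against a 1.5-fold change unless edgeR or eBayes is named. The members, gene lists and contrasts were chosen with earlier results of these data known. The genes named were the 10 members, of each pathway list at most 3 called genes per contrast by lowest FDR, for each called member the 3 other genes with the highest correlation over group means, and marker genes that bear on a result. Alternatives were edgeR glmTreat, limma eBayes with an observed fold, DESeq2 1.42.0 size factors, no filter, no quality weights, the replicate number as a block, only the libraries of the contrast's pool, counts taken out for the 16 sample indices used in both pools (an upper estimate, 2.55 to 36.8% of the counts of the same-index library of the first pool and 4.06 to 13.9% of that of the second), and leaving out each library. No libraries were identical and 0 columns were left unused. Promoters came from RefSeq (GRCm38.p6), a build other than that of the counts, and none was given for Znrf3.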

Additional observations from a re-analysis of the deposited data

Results flagged for a closer look

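The difference between the sexes at 72 h less that at 0 h passed the test for 4 members, with log2 values of 2.70 for Axin2, 2.61 for Tcf7, 2.47 for Lef1 and 1.96 for Tcf7l1.

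In 8 of the 100 sets of 4 libraries (10 genes in 10 groups), 1 library lay far from the other 3 by Dixon's test, which chance gives in about 1 set in 20. Lef1 was at 14.1 CPM in XX 72 h replicate 7 against 23 to 24.3 CPM in the others, and at 156 CPM in XY 72 h DMSO replicate 5 against 135 to 138 CPM. Axin2 was at 46.6 CPM in XY 72 h MEKi replicate 4 against 52.5 to 53.1 CPM. Tcf7l1 was at 13.9 CPM in XX 24 h replicate 6 against 39.7 to 41.7 CPM. Tcf7l2 was at 9.8 CPM in XY 0 h replicate 5 against 2.59 to 3.53 CPM, and at 6.08 CPM in XY 24 h FGFRi replicate 1 against 1.63 to 2.11 CPM. Sp5 was at 11.9 CPM in XX 0 h replicate 2 against 8.5 to 8.64 CPM, and Rnf43 at 0.259 CPM in XY 0 h replicate 3 against 0.784 to 0.891 CPM. The cause was not tested.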

How the results depend on the processing

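Summed over the contrasts of each kind, members were called 6 times between XY and XX, 8 times over time in culture, 0 times for inhibitors against DMSO, 0 times for MEKi against FGFRi, 6 times for XY MEKi against XX and 4 times for differences between effects. Under limma eBayes, which tests against no change, these were 20 for time, 5 for inhibitors, 3 for MEKi against FGFRi and 7 for differences between effects, since it asks for a smaller change. With no filter on low counts 1 was called for inhibitors, which was Rnf43. For MEKi against FGFRi 1 was called by edgeR, 1 with DESeq2 size factors and 1 without XY 72 h FGFRi replicate 6, which was Tcf7 each time. Leaving out 1 library at a time gave 4 to 6 for XY against XX, 7 to 10 for time, 0 to 0 for inhibitors, 0 to 1 for MEKi against FGFRi, 5 to 7 for XY MEKi against XX and 3 to 4 for differences between effects. No direction of a called value was reversed in any of these settings. DESeq2 size factors moved the median of all genes by 0.11 (XX) and 0.116 (XY) on the log2 scale between 24 h and 72 h, the share of higher calls from 46.5% to 55.7% (XX) and from 58.5% to 66.5% (XY), and that for the MEKi effect at 72 h less 24 h from 64.1% to 54.1%.

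Replicate numbers did not pair the samples: deviations of 62 same-numbered pairs had a median correlation of -0.012 (range -0.13 to 0.14). With the replicate block 5 members were called for XY against XX, 7 for time, 0 for inhibitors, 0 for MEKi against FGFRi, 4 for XY MEKi against XX and 3 for differences between effects. The calls not made with the block were Nkd1 in XY against XX at 72 h (FDR 0.405) and in XY MEKi against XX at 72 h (FDR 0.554), Tcf7 in XX at 72 h against 24 h (FDR 0.0992), and Tcf7l1 in XY MEKi against XX at 72 h (FDR 0.221) and in the sex difference at 72 h less 0 h (FDR 0.241). Depth limits Rnf43, Sp5, Tcf7l2 and, at 72 h, Tcf7l1.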
